A study of Mus musculus with 16 samples.

Results

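Mouse liver in which the NRF2 gene and the glutathione-synthesis gene *Gclc* had both been targeted in hepatocytes (labelled L-DKO) was compared with liver in which the NRF2 gene alone had been targeted (labelled Nrf2 L-KO). The comparison asks which transcripts change upon loss of *Gclc* when NRF2 is targeted as well. The 4 libraries labelled L-DKO and the 4 labelled Nrf2 L-KO were taken by genotype from the 16 liver libraries of the study, which also hold 4 labelled WT and 4 labelled Gclc L-KO. All mice were adults of at least 12 weeks, and every one, WT included, received AAV-TBG-Cre by tail vein. This virus expresses Cre recombinase from a hepatocyte promoter, and both genes stay intact in the remaining liver cells. L-DKO mice carried Gclc f/f and Nrf2 f/f alleles, Nrf2 L-KO mice Nrf2 f/f, Gclc L-KO mice Gclc f/f and WT mice Gclc wt/wt, and livers were taken 3 weeks after the injection. The deposited values are rlog values, a log2 form of the counts in which libraries are brought to one scale and each gene is pulled toward its own mean, the more so the weaker its expression. Depth per library is unknown, since no counts are given.

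GCLC is the catalytic subunit of the enzyme that joins glutamate and cysteine, the rate-limiting step of glutathione synthesis. NRF2, encoded by *Nfe2l2*, is the transcription factor that KEAP1 holds at low levels until electrophiles or oxidants modify KEAP1, and it then induces glutathione, thioredoxin and detoxification genes. Cells have other programmes for the same insults. HSF1 induces chaperones when proteins misfold, MTF1 induces metallothioneins when free zinc rises, and NRF1 induces proteasome subunits when proteasome capacity falls short.

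Limma called 796 of 15128 tested genes between L-DKO and Nrf2 L-KO at an adjusted p under 0.05, which is 5.26% of the genes. Of these, 401 were higher in L-DKO (2.65%) and 395 lower (2.61%), and 104 changed by at least 1 on the log2 scale, 25 of them higher and 79 lower. With quantile normalization 569 genes were higher and 308 lower, so the split by direction depends on the scaling. In 730 of the called genes (4.83% of all genes tested) the L-DKO and Nrf2 L-KO libraries did not overlap, and over all genes, called or not, 6.91% had every L-DKO library above and 6.64% every L-DKO library below. The 15 largest rises without overlap included *Mt2*, *Mt1*, the heat shock genes *Hspb1* and *Hsph1* and 5 histone genes, and the 15 largest falls included *Slc22a28*, *Fabp5*, *Adgrf1*, *Slco1a1* and *Mup2*. The 32 genes of the proteasome list given below changed by less, at most 0.58. The count moved with single libraries, from 172 without L-DKO replicate 3 to 2022 without L-DKO replicate 2. Leaving out L-DKO replicate 4 gave 195 and L-DKO replicate 1 gave 552, and leaving out Nrf2 L-KO replicates 1, 2, 3 and 4 in turn gave 306, 486, 256 and 442. No called gene changed sign in any of these 8 fits. Since the genes were chosen on all 8 libraries, the kept sign is not independent support. Of the 796 genes, 156 were called in all of these fits, and for 458 the call ended in most of them.

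Replicates 1 and 2 stood apart from replicates 3 and 4 in every genotype. *Xist*, expressed from the inactive X chromosome, lay between 14.10 and 14.65 in the former and between 7.95 and 8.91 in the latter, with the opposite order for *Ddx3y*, which is on the Y chromosome. Sex is not part of the labels. Each genotype holds 2 libraries of either kind, so the main comparison is balanced, and values within each pair are given below. Marker genes checked the tissue. The mean of 8 hepatocyte markers lay between 16.05 and 16.56 in L-DKO and between 16.55 and 16.76 in Nrf2 L-KO, and none of the 8 was called. The mean of 10 Kupffer cell markers lay between 10.10 and 10.76 in L-DKO and between 9.66 and 10.95 in Nrf2 L-KO. No marker of Kupffer cells, recruited macrophages, neutrophils, T and NK cells, B cells, endothelium, stellate cells or erythroid cells was called, and among cholangiocyte and progenitor markers only *Cd24a* was called (-0.64, adjusted p = 0.0424). In replicates 3 and 4 alone 5 of 10 Kupffer cell markers and 5 of 11 markers of recruited macrophages were called higher. There 3 of the 8 hepatocyte markers were called lower. Over all 15128 genes that fit called 1171 higher and 1584 lower. The part of these markers in the results below was not tested. In bulk liver, fewer cells of a type and less RNA per cell cannot be told apart.

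*Gclc* itself was lower in the libraries labelled L-DKO. Its rlog values were 11.45, 11.44, 11.33 and 11.66 in L-DKO replicates 1 to 4 and 12.92, 12.67, 12.59 and 13.00 in Nrf2 L-KO, with no overlap. This is a log2 difference of -1.32 (standard error 0.23, adjusted p = 0.00628). By contrast, in the libraries labelled Gclc L-KO the same transcript was not lower than in WT (13.43 ± 0.61 against 13.22 ± 0.28, mean ± SD, n = 4). *Nfe2l2* stood at 12.41, 12.29, 13.17 and 13.24 in L-DKO and at 11.94, 11.89, 12.54 and 12.41 in Nrf2 L-KO. These groups overlapped, and the difference of 0.58 (standard error 0.21, adjusted p = 0.106) did not pass the threshold. Within each pair of replicates, 1 and 2 or 3 and 4, both L-DKO libraries were above both Nrf2 L-KO libraries. The difference passed with the replicate number as a block (adjusted p = 0.0292), with *Xist* as a covariate (adjusted p = 0.0164), in replicates 3 and 4 alone (adjusted p = 0.00414) and without L-DKO replicate 2 (adjusted p = 0.0278). Both groups lay above WT (11.54 to 11.62), so the *Nfe2l2* level does not show the deletion that the labels of either group give. Gene-level values pool all exons and cannot show whether deleted exons are missing. *Srxn1*, an NRF2 target that repairs oxidised peroxiredoxins, lay between 13.49 and 16.44 in Gclc L-KO and between 11.14 and 11.58 in the libraries labelled L-DKO. The latter lay above every WT library (10.62 to 11.10).

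**Figure D1:**
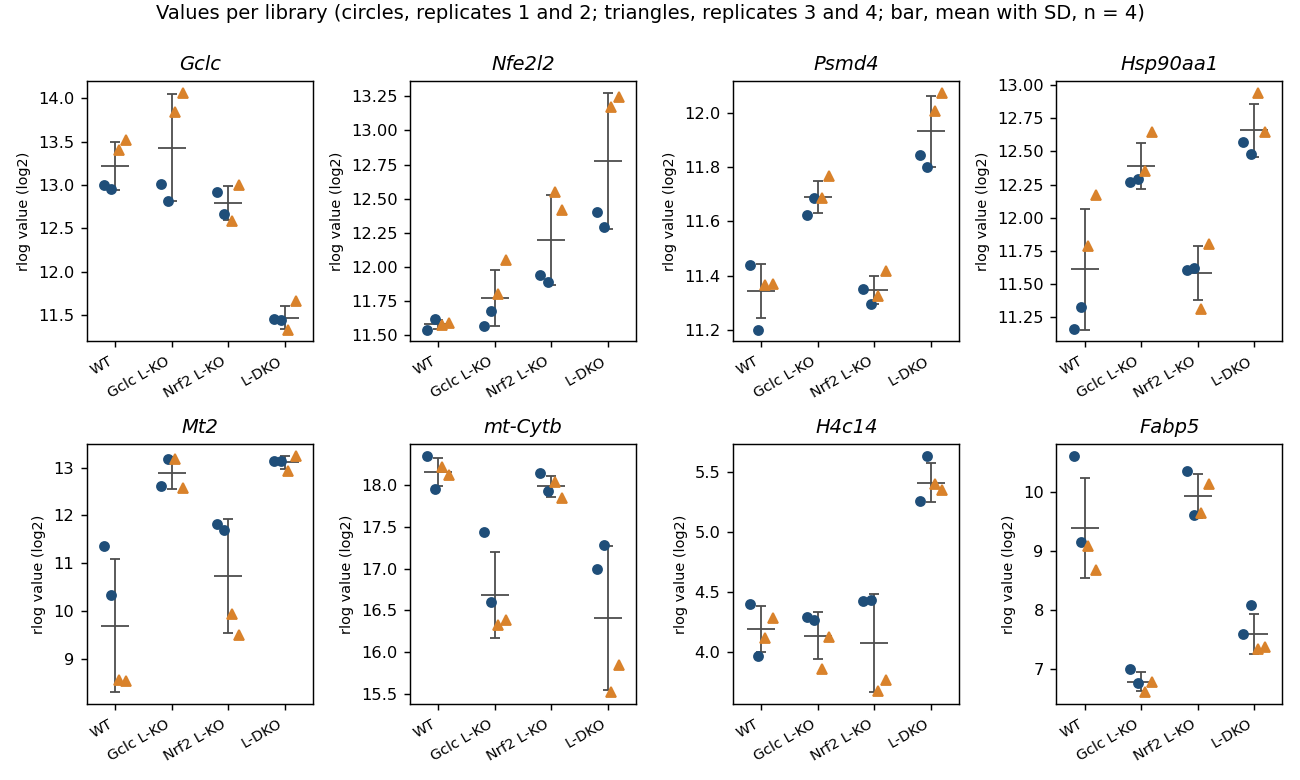
rlog values (log2) of 8 genes in each of the 16 libraries, by genotype. Circles are replicates 1 and 2, triangles replicates 3 and 4, and bars the mean with SD (n = 4). *Gclc* was lowest in L-DKO (11.33 to 11.66), *Psmd4* and *Hsp90aa1* were higher in L-DKO than in every Nrf2 L-KO library, and the drop in *mt-Cytb* was deeper in replicates 3 and 4 (15.52 and 15.85) than in replicates 1 and 2.

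The proteasome rose nearly as a whole. Of 32 measured genes of the 26S proteasome and its assembly, 27 were higher in L-DKO, none was lower, and all 32 differences were positive (0.16 to 0.58, median 0.36, against a median of -0.01 over all genes). The share of all genes called higher was 2.65%. Every part of the particle was among them. *Psmd4*, a receptor for ubiquitin chains on the 19S cap, stood at 11.84, 11.80, 12.01 and 12.07 in L-DKO and at 11.35, 11.30, 11.32 and 11.42 in Nrf2 L-KO (difference 0.58, standard error 0.07, adjusted p = 5.34e-04). *Psmd14*, the deubiquitinase of the cap, stood at 11.04, 11.08, 11.14 and 11.15 in L-DKO and at 10.59, 10.54, 10.64 and 10.58 in Nrf2 L-KO (0.51, standard error 0.06, adjusted p = 6.51e-04). The L-DKO libraries of both genes lay above every Nrf2 L-KO library, by more than the spread within either group. The cap subunit *Psmd12* rose by 0.48 (adjusted p = 4.50e-04), the ATPase *Psmc5* by 0.47 (adjusted p = 6.24e-04), the core subunit *Psma1* by 0.43 (adjusted p = 3.28e-04) and the catalytic core subunit *Psmb5* by 0.34 (adjusted p = 0.0275). The 5 genes that did not pass were *Psma2*, *Psma3*, *Psmb7*, *Psmd13* and *Psmd8*. *Nfe2l1*, which encodes NRF1, did not differ in mRNA (-0.002, standard error 0.10, adjusted p = 0.993). These libraries hold RNA only and do not show the level of NRF1 protein. On immunoblots the study reported NRF1 protein above control in both Gclc L-KO and L-DKO livers. Gclc L-KO against WT shares no library with this comparison, and there 23 of the 32 were called higher with a median of 0.23, where 10.6% of all genes were called higher. Of the 32, 22 were called in both comparisons. None of these 32 genes was called for the interaction. The interaction is the difference between the changes in the backgrounds with NRF2 targeted and not targeted. *Adrm1*, a proteasome gene outside this list, is given below. The median was 0.32 in replicates 1 and 2 and 0.41 in replicates 3 and 4, and all 32 were positive in both pairs.

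Genes of the ubiquitin shuttle system were looked at after their values had been seen. Of 17 such genes, 11 were higher (2.65% of all genes) and none lower, with a median of 0.31. *Adrm1*, another ubiquitin receptor of the proteasome, stood at 10.98, 10.91, 11.16 and 11.13 in L-DKO and at 10.36, 10.48, 10.39 and 10.49 in Nrf2 L-KO (0.62, standard error 0.07, adjusted p = 3.78e-04). Against WT, Gclc L-KO stood at 0.12 (adjusted p = 0.221), and the interaction was called (0.50, adjusted p = 0.0267), so its rise was larger where NRF2 was targeted. *Usp14*, a deubiquitinase bound to the proteasome, rose by 0.46 (adjusted p = 7.29e-04). *Vcp*, the ATPase that pulls ubiquitylated proteins out of membranes and complexes, rose by 0.30 (adjusted p = 0.0124). The autophagy receptor *Sqstm1* lay between 14.18 and 14.89 in L-DKO and between 13.53 and 13.81 in Nrf2 L-KO (0.82, adjusted p = 0.0347), a call that ended in 6 of the 8 fits with a library left out.

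Heat shock chaperones rose in the same libraries. Of 18 measured chaperones, co-chaperones and their regulator *Hsf1*, 11 were higher and none lower (median 0.58). The share of all genes called higher was 2.65%. *Hsp90aa1*, the inducible HSP90, stood at 12.57, 12.48, 12.94 and 12.65 in L-DKO and at 11.61, 11.62, 11.31 and 11.80 in Nrf2 L-KO (1.07, standard error 0.18, adjusted p = 0.00548). *Hsph1*, a nucleotide exchange factor of HSP70, stood at 11.61, 11.36, 11.74 and 11.62 in L-DKO and at 10.52, 10.50, 9.87 and 10.66 in Nrf2 L-KO (1.19, standard error 0.20, adjusted p = 0.00461). The groups did not overlap for either gene. The small chaperone *Hspb1* changed most, by 1.35 (standard error 0.28, adjusted p = 0.0173), with 8.99, 8.62, 9.85 and 10.01 in L-DKO against 8.46, 7.57, 7.96 and 8.08. *Hspa8*, the constitutive HSP70 of the cytosol, stood between 14.55 and 15.05 in L-DKO and between 13.77 and 14.20 in Nrf2 L-KO (0.76, adjusted p = 0.00360). In Gclc L-KO it stood at 0.02 against WT (adjusted p = 0.913), and the interaction of 0.73 did not pass (adjusted p = 0.0729). The HSP40 genes *Dnajb1* (0.94) and *Dnaja1* (0.57) rose as well, while *Hspa1b* (0.92, adjusted p = 0.0608) and *Hsf1* (0.16, adjusted p = 0.174) did not pass. In Gclc L-KO against WT 8 of the 18 were called higher (10.6% of all genes), 6 of them called here too. The count here fell to 7 when either L-DKO replicate 3 or L-DKO replicate 4 was left out. Among families chosen after their values had been seen, 4 of 8 subunits of the cytosolic chaperonin CCT and 5 of 10 co-chaperones of HSP90 were higher and none was lower. The tubulin genes *Tubb4b* (0.90, adjusted p = 0.00361) and *Tuba1c* (0.87, adjusted p = 0.00453), whose products fold on CCT, were higher too, 2 of 11 tubulins measured. These counts stand beside 2.65% of all genes called higher.

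Metallothioneins, small cysteine-rich proteins that bind zinc and copper, had the largest rises. *Mt2* stood at 13.14, 13.13, 12.93 and 13.25 in L-DKO and at 11.81, 11.69, 9.94 and 9.51 in Nrf2 L-KO (2.38, standard error 0.59, adjusted p = 0.0347). *Mt1* stood at 13.66, 13.62, 13.59 and 13.81 in L-DKO and at 12.49, 12.12, 10.81 and 10.60 in Nrf2 L-KO (2.16, standard error 0.52, adjusted p = 0.0303). The L-DKO libraries lay close together, while Nrf2 L-KO replicates 3 and 4 lay below replicates 1 and 2, so the *Mt2* difference was 1.39 in the first pair and 3.37 in the second. The difference between the pairs was not called for *Mt1* (adjusted p = 0.110). Each call ended in 5 of the 8 fits with a library left out. Both genes were called in Gclc L-KO against WT (3.19 for *Mt2* and 2.87 for *Mt1*). The other 7 genes of zinc handling were not called.

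Sequences before the start sites of some of these genes are shown because most proteasome genes and chaperones, and *Mt2* and *Mt1*, rose. Each of these groups has a well known response element. They are the 250 bases upstream of the RefSeq start, 5′ to 3′ on the strand of the gene, on GRCm38.p6. Capitals mark matches on either strand to the metal response element (TGCACNC or TGCGCNC) in *Mt2* and *Mt1*, the heat shock element (GAANNTTCNNGAA or TTCNNGAANNTTC, in overlapping matches) in *Hspe1*, and the antioxidant response element (TGACNNNGC), to which NRF2 and NRF1 bind, in *Psmb5* and *Psmd12*.
Mt2, chr8:94172368-94172617, plus strand: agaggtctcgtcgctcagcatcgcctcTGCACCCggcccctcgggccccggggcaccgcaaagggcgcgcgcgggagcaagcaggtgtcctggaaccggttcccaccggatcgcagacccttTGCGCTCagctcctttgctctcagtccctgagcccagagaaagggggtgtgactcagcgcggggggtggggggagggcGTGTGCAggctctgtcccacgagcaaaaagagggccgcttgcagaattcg
Mt1, chr8:94178839-94179088, plus strand: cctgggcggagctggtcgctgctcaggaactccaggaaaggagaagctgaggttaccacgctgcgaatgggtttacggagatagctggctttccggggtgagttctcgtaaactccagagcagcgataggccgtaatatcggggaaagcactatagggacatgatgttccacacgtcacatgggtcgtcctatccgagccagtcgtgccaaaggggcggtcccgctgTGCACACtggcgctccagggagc
Hspe1, chr1:55087898-55088147, plus strand: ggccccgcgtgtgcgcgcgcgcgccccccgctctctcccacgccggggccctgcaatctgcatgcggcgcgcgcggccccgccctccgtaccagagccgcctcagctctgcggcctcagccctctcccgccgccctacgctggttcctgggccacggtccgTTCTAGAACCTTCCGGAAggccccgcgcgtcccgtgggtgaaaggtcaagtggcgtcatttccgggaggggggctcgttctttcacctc
Psmb5, chr14:54617996-54618245, minus strand: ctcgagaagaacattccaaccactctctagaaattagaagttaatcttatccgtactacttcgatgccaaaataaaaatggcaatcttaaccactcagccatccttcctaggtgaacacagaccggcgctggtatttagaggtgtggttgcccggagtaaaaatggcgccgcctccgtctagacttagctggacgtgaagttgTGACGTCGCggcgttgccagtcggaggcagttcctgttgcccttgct
Psmd12, chr11:107479278-107479527, plus strand: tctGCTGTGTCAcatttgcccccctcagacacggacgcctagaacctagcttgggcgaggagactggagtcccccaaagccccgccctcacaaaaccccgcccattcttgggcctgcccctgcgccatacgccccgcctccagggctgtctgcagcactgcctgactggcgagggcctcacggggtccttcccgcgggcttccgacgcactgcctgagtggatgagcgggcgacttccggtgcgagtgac

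Some genes have more than 1 window, so counts of windows are given beside those of genes. The metal response element was found in 5 of 7 matched genes of zinc handling, *Mt2* with 3 matches and *Mt1* with 1. That is 5 of their 9 windows, against 21.4% of all 32851 windows. *Slc30a10* and *Slc39a5*, which also held it, were not called. The heat shock element was found in 2 of 13 matched chaperone genes (2 of 19 windows) and in 0.466% of all windows. These 2 are *Hspe1*, the co-chaperone of the mitochondrial chaperonin (0.36, adjusted p = 0.0233), and *Hspd1*, the chaperonin itself (0.17, adjusted p = 0.187), which are read in opposite directions from the same stretch, so their windows overlap. The antioxidant response element was found in 4 of 26 matched proteasome genes (4 of 28 windows) and in 10.2% of all windows. These 4 are *Psmb5*, *Psmb6*, *Psmc6* and *Psmd12*, all called higher, as were 27 of the 32 proteasome genes measured. The same element was found in 3 of 16 matched NRF2 targets in drug metabolism and export (4 of 18 windows). The windows printed above were chosen among those with a match. A match is a description of these letters only and is not evidence of binding.

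Histone transcripts rose, which was seen only after the values had been examined. Of 65 genes of replication-dependent histones, 54 lay under the minimum of 3. Of the 11 measured, 9 were higher in L-DKO, against 2.65% of all genes. The libraries hold poly(A) RNA, and the part of that selection in these levels was not tested. *H3c15* stood at 6.59, 6.18, 6.51 and 7.0 in L-DKO and at 5.36, 5.10, 4.49 and 4.61 in Nrf2 L-KO (1.68, standard error 0.22, adjusted p = 0.00107). *H4c14* stood at 5.25, 5.63, 5.40 and 5.35 in L-DKO and at 4.42, 4.43, 3.67 and 3.77 in Nrf2 L-KO (1.33, standard error 0.18, adjusted p = 0.00122). Groups did not overlap for either gene. *H4c14* did not rise in Gclc L-KO (-0.05 against WT, adjusted p = 0.855), and its interaction was called, as were those of *H4c8* and *H4c9*. By contrast, *H3c15* rose in Gclc L-KO (1.22 against WT, adjusted p = 0.00199), and its interaction was not called (adjusted p = 0.515). Of the 11 genes, 3 were called higher and 2 lower in Gclc L-KO, against 10.6% and 12.4% of all genes. Those 3 were called higher here too. The interaction was called for 3 of the 11, against 0.687% of all genes. Expression over these genes, which are weakly expressed here, is shrunken most by the rlog scale. Genes of the cell cycle and mitosis did not pass. None of 25 was called (lowest adjusted p = 0.0630), although 24 of the 25 differences were positive and the median was 0.83. In replicates 3 and 4 alone 20 of the 25 were called higher, with *Xist* as a covariate 5 and with the replicate number as a block 1. Over all 15128 genes these fits called 1171, 941 and 728 higher. The proliferation marker *Mki67* stood at 8.07, 7.66, 9.31 and 9.07 in L-DKO and at 7.57, 7.85, 6.69 and 7.76 in Nrf2 L-KO (1.06, adjusted p = 0.0791). Replicates 3 and 4 of L-DKO were the high ones. Over the 25 genes the median difference was 0.08 in replicates 1 and 2 and 1.61 in replicates 3 and 4, and the difference between the pairs was not called for any of them (lowest adjusted p = 0.0787). The checkpoint kinase gene *Chek1* was not in the list and was picked after its value was seen (1.03, adjusted p = 0.0218).

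**Figure D2:**
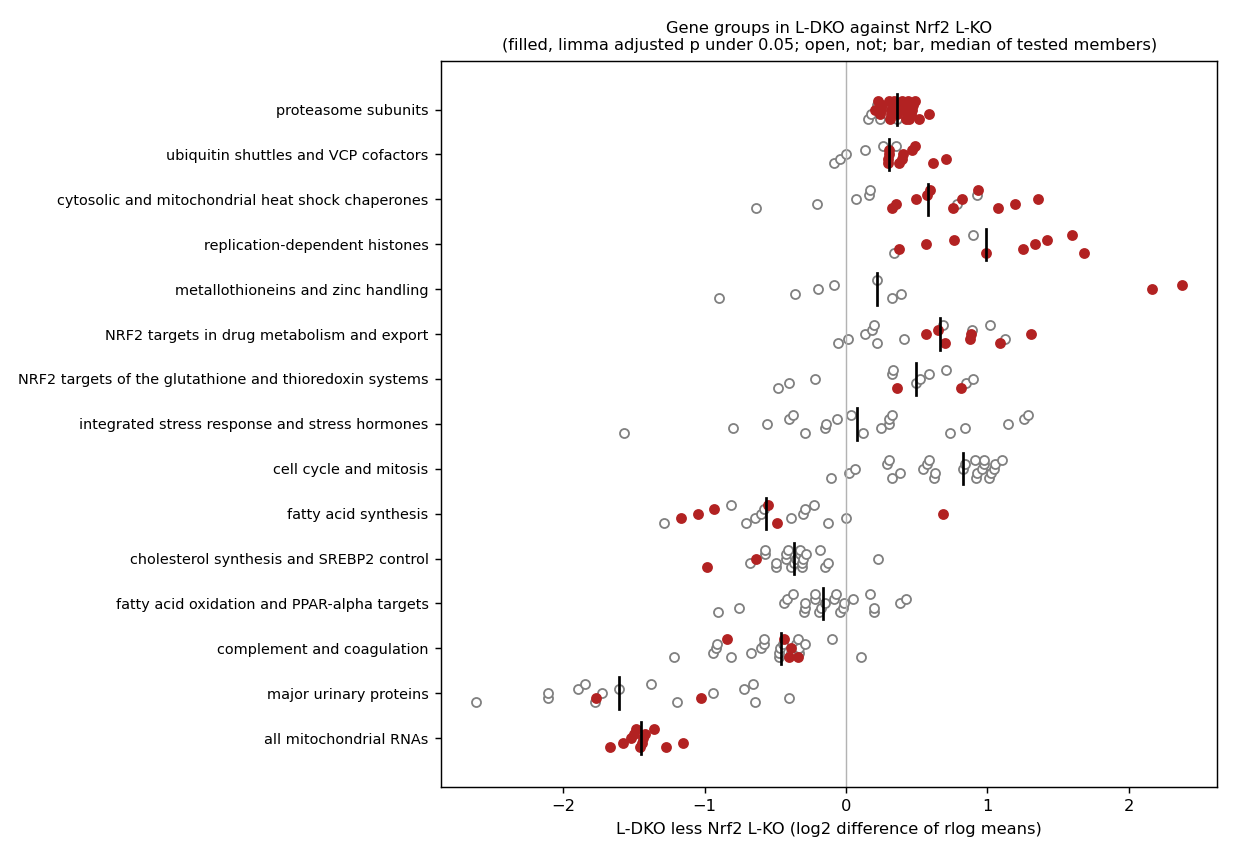
Log2 differences, L-DKO less Nrf2 L-KO, for the tested members of 15 gene groups. Each point is a gene, filled where limma's adjusted p is under 0.05, and the bar is the median of the group. All 32 proteasome genes lie above 0 and all 12 mitochondrial RNAs below -1, and the cell cycle genes lie mostly above 0 with none called.

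Every measured RNA of the mitochondrial genome was lower. Of the 13 mitochondrial messages, which encode subunits of the respiratory chain, 7 were tested and all 7 fell (median -1.42), against 2.61% of all genes called lower. The other 6, among them *mt-Atp6*, *mt-Co2* and *mt-Co3*, lie under the minimum and are listed near 0 or below it, so they could not be compared. *mt-Co1* stood at 17.88, 18.07, 16.24 and 16.53 in L-DKO and at 18.99, 18.76, 19.02 and 18.63 in Nrf2 L-KO (-1.67, standard error 0.40, adjusted p = 0.0295). *mt-Nd6*, the message on the opposite strand, stood at 9.34, 9.21, 8.23 and 8.27 in L-DKO and at 10.13, 10.18, 10.37 and 10.05 in Nrf2 L-KO (-1.42, standard error 0.25, adjusted p = 0.00634). Replicates 3 and 4 of L-DKO were the lowest for both genes, and no L-DKO library reached a Nrf2 L-KO library. With the ribosomal RNAs *mt-Rnr1* (-1.52) and *mt-Rnr2* (-1.44) and 3 transfer RNAs, 12 of 12 tested mitochondrial RNAs were lower. In libraries made from poly(A) RNA the level of such RNAs also depends on the selection and on RNA quality, whose part in the result was not tested. The median over the 7 messages was -0.85 in replicates 1 and 2 and -2.07 in replicates 3 and 4. The count of 7 depended on single libraries, and was 1 when L-DKO replicate 3, L-DKO replicate 4 or Nrf2 L-KO replicate 3 was left out, 2 when Nrf2 L-KO replicate 1 was, and 4 when Nrf2 L-KO replicate 2 or 4 was. It was 1 with only the groups compared in the fit. In Gclc L-KO against WT 4 of the 7 were called lower (12.4% of all genes, median of the 7 -0.88), and no interaction was called. Nuclear genes of the respiratory chain moved less. None of 27 tested rose (median -0.20), and *Sdha* (-0.43) and *Cox6c* (-0.33) were among those that fell. The nuclear RNA *Malat1* was lower (-0.65, adjusted p = 0.0229) and *Neat1*, the scaffold of paraspeckles, higher (1.21, adjusted p = 0.00895).

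Genes of fatty acid synthesis form palmitate from acetyl-CoA and then lengthen and desaturate it. Of 18 tested, 5 fell, *Me1* rose and 12 did not pass (median -0.56, 17 of 18 negative). Over all genes 2.61% were called lower and 2.65% higher. *Scd1*, the stearoyl-CoA desaturase, stood at 16.64, 16.74, 16.36 and 16.16 in L-DKO and at 17.32, 16.84, 17.87 and 18.06 in Nrf2 L-KO (-1.05, standard error 0.29, adjusted p = 0.0490). *Acacb*, the acetyl-CoA carboxylase of the mitochondrial surface, stood at 10.89, 11.30, 9.95 and 9.73 in L-DKO and at 11.86, 11.58, 11.82 and 11.27 in Nrf2 L-KO (-1.16, standard error 0.31, adjusted p = 0.0447). For *Acacb* one L-DKO library overlapped the Nrf2 L-KO range. Both calls sit near the threshold, and each ended in 6 of the 8 fits with a library left out. *Acss2* (-0.93), *Fads1* (-0.55) and *Acaca* (-0.49) also fell. *Fasn* lay between 13.25 and 14.31 in L-DKO and between 14.46 and 14.76 in Nrf2 L-KO without overlap, yet did not pass (-0.82, adjusted p = 0.0808), and nor did *Srebf1* (-0.71, adjusted p = 0.121). In Gclc L-KO against WT 12 of the 18 were called lower (12.4% of all genes), with a median of -1.03. The interaction was called for *Scd1* (-3.06 in Gclc L-KO against -1.05 here), so its fall was smaller where NRF2 was targeted. The count of 5 was not stable. It was 0 when L-DKO replicate 3 or 4 or Nrf2 L-KO replicate 1 or 3 was left out, 1 when Nrf2 L-KO replicate 4 was, 3 when L-DKO replicate 1 was, and 13 on replicates 3 and 4 only. The median was -0.21 in replicates 1 and 2 and -0.85 in replicates 3 and 4.

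Other lipid genes were looked at as well. Of 23 genes of cholesterol synthesis and its control, *Fdps*, which makes farnesyl pyrophosphate, and *Nsdhl* fell (-0.99, adjusted p = 0.00885, and -0.64, adjusted p = 0.0262), and 22 of 23 differences were negative (median -0.37). The 2 called of 23 stand beside 2.61% of all genes called lower. *Fabp5*, a fatty acid binding protein, stood at 7.59, 8.08, 7.34 and 7.37 in L-DKO and at 10.35, 9.62, 9.64 and 10.13 in Nrf2 L-KO (-2.34, standard error 0.32, adjusted p = 0.00132). The call held in all 8 fits with a library left out, and it is among the largest falls. *Acsl5*, an acyl-CoA synthetase, fell by 0.55 on the log2 scale. None of 24 genes of fatty acid oxidation and none of 20 apolipoproteins and triglyceride-clearance genes was called. In replicates 3 and 4 alone 12 and 3 of them were called lower, where 1584 of all 15128 genes were.

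Some NRF2 targets were higher in L-DKO. Of 18 targets in drug metabolism and export 7 rose (median 0.67), and of 13 targets of the glutathione and thioredoxin systems *Sqstm1* and *Prdx1* rose (median 0.50). Among all genes 2.65% were called higher. *Ugdh*, which makes UDP-glucuronic acid, stood at 12.74, 12.71, 13.09 and 13.15 in L-DKO and at 11.59, 11.59, 11.96 and 12.20 in Nrf2 L-KO (1.09, standard error 0.15, adjusted p = 0.00122). *Gsta2*, a glutathione transferase, stood at 9.72, 9.63, 8.54 and 9.21 in L-DKO and at 7.62, 7.93, 7.65 and 8.65 in Nrf2 L-KO (1.31, standard error 0.26, adjusted p = 0.0147), with 1 library of each group in the range of the other. *Gstm1* stood between 14.85 and 15.10 in L-DKO and between 14.37 and 14.46 in Nrf2 L-KO (0.57, adjusted p = 0.0150). *Ephx1* (0.88), *Aox1* (0.87), *Gsta4* (0.70) and *Gstm2* (0.65) also rose. The 7 were 4 without Nrf2 L-KO replicate 3. In Gclc L-KO *Gsta2* lay at 12.84 ± 0.35, *Ugdh* at 14.60 ± 0.06 and *Gstm1* between 18.19 and 18.37 (n = 4), above every library of the other genotypes. The interaction was called for 11 of the 18 drug-metabolism targets and 6 of the 13 others, against 0.687% of all genes. *Nqo1*, a quinone reductase often taken as the marker of NRF2 activity, stood at 8.97, 8.98, 8.21 and 8.18 in L-DKO and at 8.28, 8.35, 7.53 and 7.35 in Nrf2 L-KO. Within each pair of replicates the L-DKO libraries were the higher ones, but over all 4 the groups overlapped and the difference did not pass (0.70, standard error 0.31, adjusted p = 0.172). *Srxn1* stood at 11.42, 11.14, 11.58 and 11.38 in L-DKO and at 10.48, 10.63, 10.41 and 10.62 in Nrf2 L-KO. For *Srxn1* the groups did not overlap. It did not pass when the spread was shared with the Gclc L-KO libraries (0.85, standard error 0.44, adjusted p = 0.251). With only the groups compared in the fit it passed (adjusted p = 0.0140). *Gclm* (0.32, adjusted p = 0.0701) and *Txnrd1* (0.59, adjusted p = 0.0526) did not pass.

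**Figure D3:**
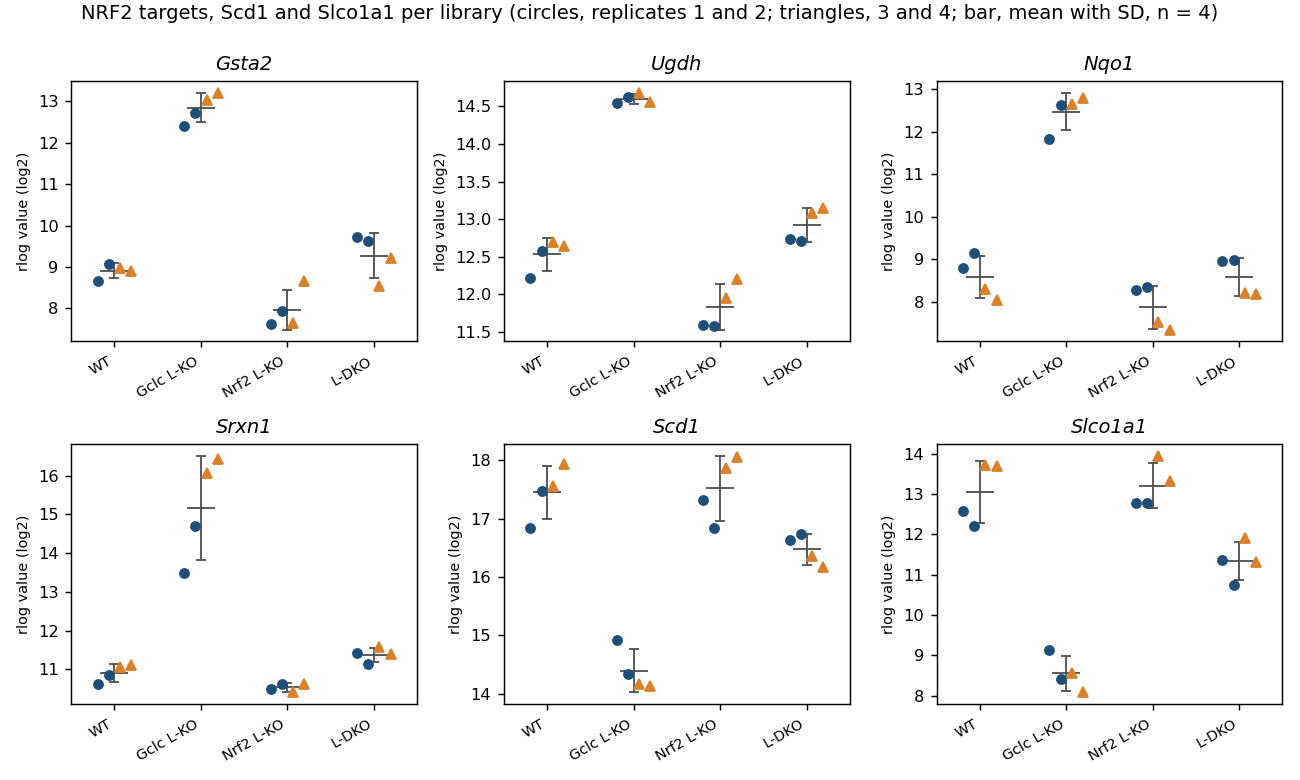
rlog values (log2) of *Gsta2*, *Ugdh*, *Nqo1*, *Srxn1*, *Scd1* and *Slco1a1* in each library, by genotype. Circles are replicates 1 and 2, triangles replicates 3 and 4, and bars the mean with SD (n = 4). The 4 NRF2 targets were highest in Gclc L-KO (12.84 for *Gsta2* against 9.27 in L-DKO and 7.96 in Nrf2 L-KO), and *Scd1* and *Slco1a1* were lowest there.

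Among the other large changes, *Rsad2*, an interferon-induced antiviral enzyme, stood at 10.28, 9.87, 11.15 and 11.67 in L-DKO and at 8.79, 9.37, 8.83 and 8.64 in Nrf2 L-KO (1.83, standard error 0.34, adjusted p = 0.00895). *Isg15*, a ubiquitin-like protein of the same response, rose by 1.15 (adjusted p = 0.0474), and the other 24 interferon genes were not called (median of the list 0.23). The share of all genes called higher was 2.65%. *Impact*, an inhibitor of the amino acid sensor kinase GCN2, stood between 10.10 and 10.54 in L-DKO and between 9.01 and 9.31 in Nrf2 L-KO (1.15, standard error 0.13, adjusted p = 4.50e-04), and changed by 1.19 in Gclc L-KO against WT. None of 20 genes of the integrated stress response and stress hormones was called. Of these, *Atf4* stood at 0.12 (adjusted p = 0.607), *Ddit3* at 0.84 (adjusted p = 0.144) and *Fgf21* at 1.26 (adjusted p = 0.430). *Mdm2*, which is induced by p53, rose by 0.73 (adjusted p = 0.0347), the only called gene of 20 p53 targets. *Cdkn1a* stood at 1.83 (adjusted p = 0.147). In replicates 3 and 4 alone 12 of the 20 were higher and 1 lower, where 1171 and 1584 of all 15128 genes were.

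Several liver transporters and secreted proteins fell. *Slco1a1*, an organic anion carrier of the hepatocyte, stood at 11.37, 10.75, 11.90 and 11.32 in L-DKO and at 12.77, 12.78, 13.95 and 13.31 in Nrf2 L-KO (-1.86, standard error 0.37, adjusted p = 0.0133). *Nnmt*, which methylates nicotinamide, stood at 9.59, 9.75, 7.90 and 8.38 in L-DKO and at 10.25, 10.82, 10.16 and 10.81 in Nrf2 L-KO (-1.61, standard error 0.42, adjusted p = 0.0413), and its call ended in 6 of the 8 fits with a library left out. The carriers *Slc22a28* (-2.52, adjusted p = 0.0222) and *Slc10a2* (-1.74, adjusted p = 0.0116), the adhesion receptor *Adgrf1* (-2.10, adjusted p = 5.34e-04), the glucuronosyltransferase *Ugt2b1* (-1.85, adjusted p = 0.0373) and *Cmah*, which forms N-glycolylneuraminic acid (-1.73, adjusted p = 0.00237), were among the largest falls. Of 26 genes of complement and coagulation *F11*, *Cfi*, *Proc*, *Pros1* and *F12* fell, from -0.84 to -0.34, and none was called higher (median -0.46). Over all genes 2.61% were called lower. The 5 were 15 with the replicate number as a block, 19 with *Xist* as a covariate and 23 in replicates 3 and 4 alone. They were 0 in replicates 1 and 2 alone and 3 with quantile normalization. Over all 15128 genes these fits called 762, 1019, 1584, 4 and 308 lower. All 17 measured major urinary proteins stood lower (median -1.61) but only 2 passed. They form a multigene family whose near-identical members can share reads, so single members are uncertain, as are those of the histone genes. None of 30 measured genes of cytochrome P450 families 1 to 4 was called lower, though 19 of the 30 differences were negative (median -0.25). *Cyp3a59* was called higher (0.88, adjusted p = 0.0432). In replicates 3 and 4 alone 9 of the 30 were called lower, where 1584 of all genes were. Of 14 genes of glutathione synthesis and recycling only *Gclc* was called.

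The changes were set beside those of Gclc L-KO against WT, where 3481 genes were called (23.0% of all genes). Of the 796 genes, 468 were also called there in the same direction, 222 higher and 246 lower, which is 58.8% of the 796 and 13.4% of the 3481. Another 324 were not called there, and *Slc6a9*, *Kdelr2*, *H4c9* and *Gm34934* were called in the opposite direction. *Slc6a9*, a glycine transporter, fell by 1.02 on the log2 scale here and rose by 0.73 in Gclc L-KO (interaction adjusted p = 0.0307). The changes had the same sign in 90.8% of the called genes and in 68.5% of all genes. Across the 796 genes Pearson's r of the 2 changes was 0.85, and across all genes 0.46, a description over genes, which are not independent. The interaction was called for 104 genes (0.687%), of which 27 were among the 796. In 16 of the 27 the change was lower on the log2 scale where NRF2 was targeted than where it was not, and in 11 it was higher. *Gsta2*, *Gstm1*, *Ugdh*, *Gstm2*, *Gsta4*, *Slc48a1*, *Entpd5* and *Pir* rose in both and rose less here, *Scd1* and *Slco1a1* fell in both and fell less here, and *Adrm1* and *H4c14* were called only here. For the other 769 the test found no difference between the changes, which does not show that they were equal. The interaction count depended on single libraries too. It was 257 without Gclc L-KO replicate 1 and 55, 31 and 66 without replicates 2, 3 and 4 of that genotype. It was 47, 44 and 40 without WT replicates 1, 3 and 4, 58, 43 and 52 without Nrf2 L-KO replicates 1, 2 and 3, and 64, 52 and 60 without L-DKO replicates 1, 3 and 4. The 3481 genes of Gclc L-KO against WT became 2021 and 1999 when replicates 3 and 4 of Gclc L-KO were left out in turn.

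**Figure D4:**
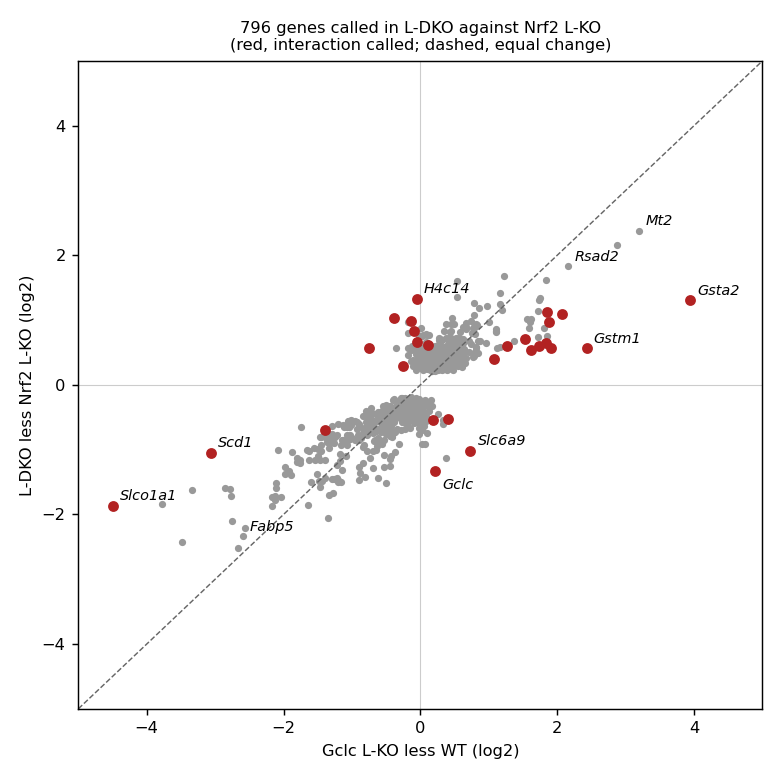
Log2 change in L-DKO against Nrf2 L-KO (vertical axis) and in Gclc L-KO against WT (horizontal axis) for the 796 genes called in the former. The dashed line marks equal change and red points the 27 genes called for the interaction. Most points lie in the quadrants of equal sign (90.8%), with *Gsta2* and *Slco1a1* far toward the horizontal axis.

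All 796 genes had the same sign in replicates 1 and 2 as in replicates 3 and 4, and in 677 the change was larger in replicates 3 and 4. Since these genes were chosen on all 8 libraries, the shared sign is not independent support. The median size of the change was 0.38 in replicates 1 and 2 and 0.62 in replicates 3 and 4. Fitted alone, replicates 1 and 2 gave 17 calls and replicates 3 and 4 gave 2755. The difference between the pairs was called for 2 genes (0.0132%), *Gm4956* and *Gm12718*, neither among the 796, and 2026 genes (13.4%) had an unadjusted p under 0.05 for it. The 2 became 142 when Nrf2 L-KO replicate 2 was left out, 53 when replicate 4 of that group was, and 6 when L-DKO replicate 1 was.

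**Figure D5:**
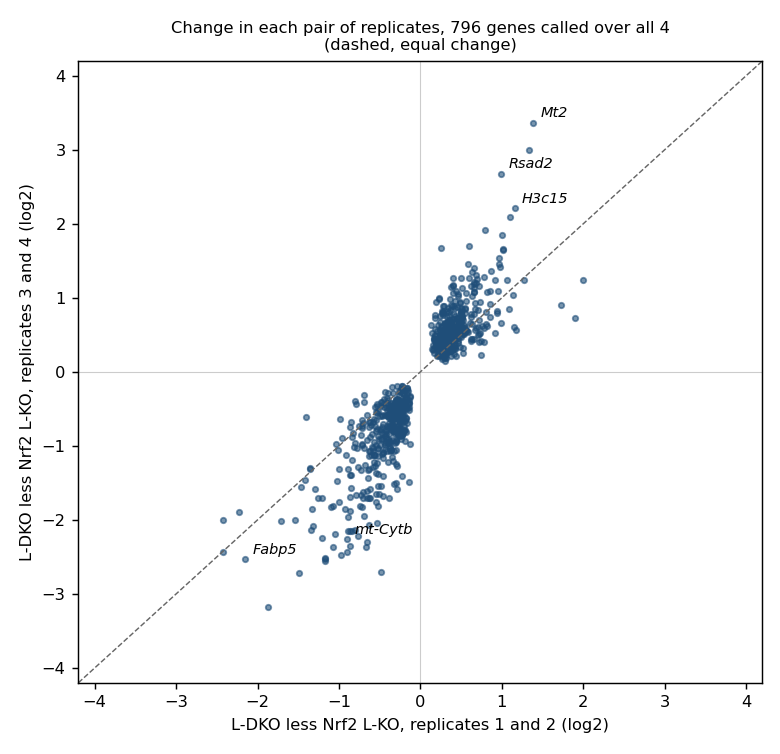
Log2 change, L-DKO less Nrf2 L-KO, in replicates 3 and 4 (vertical axis) against replicates 1 and 2 (horizontal axis) for the 796 genes called over all 4 replicates. The dashed line marks equal change, and 677 of the 796 points lie on its far side from 0, with *Mt2* at 1.39 and 3.37.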

How the data were processed

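The deposited table holds rlog values on the log2 scale that the authors made with DESeq2 1.34.0, for 56832 genes in 16 libraries of poly(A) RNA from a stranded kit. The submitters' processing notes also name bcl2fastq 2.20.0, fastp, STAR 2.7.9a, featureCounts, Subread 2.0.1, R 3.5.1 and GRCm39. Counts and depth could not be had from the values, so precision rests on the spread between the 4 mice of a genotype, and no count model was run. The median tested gene stood between 8.33 and 8.38 in every library.

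Genes with a mean of at least 3 over all 16 libraries were tested (15128). One limma fit over all 16 libraries (limma 3.58.1 in R 4.3.3, with a mean-variance trend) gave L-DKO less Nrf2 L-KO, Gclc L-KO less WT and their difference (the interaction), and a fit with 1 mean per genotype and pair of replicates gave the difference between replicates 3 and 4 and replicates 1 and 2. Adjusted p-values (Benjamini-Hochberg, two-sided) run over all genes of a comparison, with a threshold of 0.05. The fits were tested on simulated data. Lists were written from general knowledge, and 7 were added after values had been seen. The genes, lists and tests were chosen with earlier results of these data known. Genes named are the targeted genes, the 15 largest rises and falls without overlap, the first 2 members and up to 6 largest called members of each list, the 10 largest interactions in each direction and the 10 largest pair differences. Others were chosen after their values were seen. Motifs were searched in RefSeq windows on GRCm38.p6, matched by symbol. Alternatives were other minimums, trend and scaling choices, array weights, a replicate block, *Xist* as a covariate, pairs of replicates alone and each library left out. Figures were drawn with matplotlib 3.10.9.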

Additional observations from a re-analysis of the deposited data

Results flagged for a closer look

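For 27 of the 796 genes the change upon *Gclc* targeting differed between the backgrounds with NRF2 targeted and not targeted, by limma's interaction term (adjusted p from 3.48e-05 for *Gstm1* to 0.0493 for *Ugt2b34*). The interaction is L-DKO less Nrf2 L-KO, minus Gclc L-KO less WT. It was -2.63 for *Gsta2*, -1.86 for *Gstm1*, -1.19 for *Gstm2* and -0.82 for *Gsta4*, all glutathione transferases. It was -1.75 for *Slc6a9*, -1.54 for *Gclc*, -1.34 for the haem transporter *Slc48a1*, -1.12 for *Entpd5*, -1.09 for *Gm43311*, -0.98 for *Ugdh*, -0.93 for *Gm34934* and -0.91 for *Akr1c19*. It was -0.74 for *Cyfip2*, -0.74 for *Htatip2*, -0.69 for *Ugt2b34* and -0.68 for *Pir*. On the positive side it was 0.50 for *Adrm1*, 0.55 for *Kdelr2*, 0.70 for *Gm52969*, 0.71 for *Hirip3* and 0.93 for *Gm32358*. It was 1.13, 1.32 and 1.39 for the histone genes *H4c8*, *H4c9* and *H4c14*, 1.42 for *Sftpa1*, 2.01 for *Scd1* and 2.63 for *Slco1a1*.

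The change differed between replicates 3 and 4 and replicates 1 and 2 by the test of that difference for *Gm4956* (-2.72, adjusted p = 0.0238) and *Gm12718* (-2.39, adjusted p = 9.16e-04). *Gm4956* stood at 4.40, 4.40, 4.91 and 4.95 in L-DKO replicates 1 to 4 and at 4.58, 4.27, 7.25 and 8.10 in Nrf2 L-KO, so its level in replicates 3 and 4 of Nrf2 L-KO was not seen in L-DKO. *Gm12718* stood at 2.34, 2.38, 2.66 and 2.76 in L-DKO and at 2.56, 2.43, 5.31 and 5.14 in Nrf2 L-KO. In WT replicates 3 and 4 *Gm4956* stood at 8.23 and 8.38, and in those of Gclc L-KO at 5.48 and 5.39. For *Gm12718* these values were 5.33 and 5.38 in WT and 2.52 and 2.33 in Gclc L-KO.

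Single libraries stood apart from the other 3 of their genotype for 3 of 132 gene and genotype groups looked at, where chance gives about 1 in 20. *mt-Co1* was 19.27 in WT replicate 1 against 18.99 to 19.02 in the others. *Adrm1* was 10.75 in Gclc L-KO replicate 1 against 10.55 to 10.57. *Fasn* was 14.76 in Nrf2 L-KO replicate 3 against 14.46 to 14.50.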

How the results depend on the processing

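Without a filter on the mean 402 genes were called between L-DKO and Nrf2 L-KO, with only the groups compared in the fit 211, and with a log2 change of at least 1 as well 104. With *Xist* as a covariate the count was 1960, in replicates 1 and 2 only 17 and in replicates 3 and 4 only 2755. The labels give the replicate numbers no meaning, and libraries with the same number in L-DKO and Nrf2 L-KO correlated at 0.16, 0.35, 0.04 and 0.45 after the group means were removed. With the replicate number as a block the count was 1490, of which 781 were among the 796, and the fatty acid synthesis genes called lower were 3. Leaving out single libraries gave from 172 to 2022 genes. The proteasome count of 27 was 0 in replicates 1 and 2 only and 0 with a log2 change of at least 1, and lay between 18 and 28 with a library left out. The 11 chaperones were 2 and 3 at these settings and from 7 to 12, and the 7 drug-metabolism targets 3 and 2 and from 4 to 7. The 7 mitochondrial messages were 1 with only the groups compared, 0 in replicates 1 and 2 only and from 1 to 7 with a library left out. The 5 genes of fatty acid synthesis were 0 with no filter, with only the groups compared and in replicates 1 and 2 only, 2 with array weights and with a log2 change of at least 1, and 3 with no trend, median centring and quantile normalization. They were 13 in replicates 3 and 4 only and from 0 to 7 with a library left out. The interaction count of 104 was 64 with no filter, 265 with array weights, 218 with *Xist* as a covariate, 12 and 488 in the pairs of replicates alone, 55 with a log2 change of at least 1 and from 31 to 257 with a library left out. Gclc L-KO against WT gave 849 in replicates 1 and 2 only, 568 with a log2 change of at least 1 and from 1999 to 4154 with a library left out. The 2 genes that differed between the pairs were 11 with no filter, 0 at a minimum of 6, 4 with no trend and from 1 to 142 with a library left out. The cause of these shifts was not tested. None of the genes shown per library changed sign at any setting. The interaction has no fit with only the groups compared, since all 4 genotypes enter it. Depth is unknown, and the 4 mice per genotype, the spread between replicates 1 and 2 and replicates 3 and 4, and the shrinkage of weakly expressed genes limit what could be called.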
